A study of Mus musculus with 6 samples.

Results

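The 10 genes described here encode inducible and constitutive heat shock proteins and their partners: *Hspa1a*, *Hspa1b*, *Hspa8*, *Hsph1*, *Hspb1*, *Hsp90aa1*, *Hspe1*, *Hspd1*, *Dnajb1* and *Bag3*. They were chosen by symbol, and all 10 were found among the 17784 genes of the expression table and passed the filter for low counts. The data are bulk RNA-seq of the corneal epithelium, with 3 samples from *Prrx1-CreERT;Ptch1* mice, written Ptch1Prrx1, and 3 from control mice. In *Prrx1-CreERT* mice, tamoxifen switches on a recombinase in mesenchymal cells such as keratocytes and the corneal endothelium, so the deletion of *Ptch1*, the receptor that holds Hedgehog signaling in check, was aimed at cells beneath the epithelium. The study gives the Ptch1Prrx1 genotype as *Prrx1-CreERT;Ptch1 f/f*. Its methods say that the floxed *Ptch1* line was backcrossed to C57BL/6. The labels call the other mice controls, and the sample titles read WT for these and KO for the Ptch1Prrx1 samples. Per the labels, mice of both groups were 10 weeks old and received 3 doses of tamoxifen, with 2 months given as the treatment time, and the epithelium of both was detached with EDTA before freezing. The labels do not say whether a sample was 1 animal or a pool. The p-values therefore set the group difference against the spread between these samples, which need not be that between animals.

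Heat shock proteins are chaperones, which bind unfolded proteins and help them fold, refold or be cleared. When unfolded proteins accumulate, through heat or other stress, the transcription factor HSF1 forms trimers and binds heat shock elements, which are inverted repeats of the bases GAA, and transcription of HSP70, HSP90 and their helpers rises within minutes. Warm dissociation of a tissue can start the same response. The comparison asked whether these genes were higher in Ptch1Prrx1 epithelium. All 6 samples were detached with EDTA, so what the separation itself added to the levels cannot be told apart from the levels in the eye.

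Upstream sequences are shown for the members that share control sequence. They came from RefSeq windows on GRCm38.p6, which held 8 of the 10 members in 11 windows, and they were used only as sequence, since the read data were made on another build. Capitals mark matches to the 2-unit heat shock element, GAANNTTC or TTCNNGAA, and to the 3-unit element, which extends these by NNGAA or NNTTC, where N is any base. Both forms were searched and together they cover both strands. The 250 bases before the start of *Hspa1a* (chr17:34972157-34972406, minus strand) and of *Hspa1b* (chr17:34959239-34959488, minus strand) each held 1 2-unit element, ending 96 bases before the start.
Hspa1a: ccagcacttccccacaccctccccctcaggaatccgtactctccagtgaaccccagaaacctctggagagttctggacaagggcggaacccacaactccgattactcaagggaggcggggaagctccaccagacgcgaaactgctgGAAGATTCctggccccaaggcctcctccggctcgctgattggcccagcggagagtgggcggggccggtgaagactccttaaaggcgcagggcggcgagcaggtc
Hspa1b: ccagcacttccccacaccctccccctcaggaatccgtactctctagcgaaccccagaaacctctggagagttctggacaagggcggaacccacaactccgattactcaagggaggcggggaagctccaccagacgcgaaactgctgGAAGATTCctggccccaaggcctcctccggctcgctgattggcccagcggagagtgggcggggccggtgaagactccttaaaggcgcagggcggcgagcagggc
These windows were identical at 247 of 250 bases. The differences were C44T, T47C and T249G, with the *Hspa1a* base first and positions counted from 1 at the 5′ end, and all lay outside the element.

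The window of *Hspb1* (chr5:135887669-135887918, plus strand) held 2 elements, and the 107 bases between the first exons of *Hspd1* and *Hspe1* in GENCODE M21 (chr1:55088025-55088131, plus strand), which point away from each other, held 3 overlapping 2-unit and 2 overlapping 3-unit matches in a run of 18 bases.
Hspb1: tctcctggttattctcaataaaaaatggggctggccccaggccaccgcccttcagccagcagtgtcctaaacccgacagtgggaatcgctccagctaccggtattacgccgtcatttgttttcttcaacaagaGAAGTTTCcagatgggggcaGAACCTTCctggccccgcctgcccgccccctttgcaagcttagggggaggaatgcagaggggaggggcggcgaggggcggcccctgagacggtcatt
Hspd1-Hspe1: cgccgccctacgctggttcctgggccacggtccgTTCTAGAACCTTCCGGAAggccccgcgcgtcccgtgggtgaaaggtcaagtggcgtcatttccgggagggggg
Each of the 2 windows of *Hsph1* held the same single 2-unit element. The windows of *Dnajb1* and *Bag3*, and 1 of the 2 windows of *Hspd1*, held no exact match, which says only that these letters are not in these windows. In all, 7 of the 11 windows of the members (63.6%) held a 2-unit element, against 12.8% of all 32851 windows, and 2 of the 11 (18.2%) held a 3-unit element, against 0.466%. The windows of *Hsph1* overlap, as do those of *Hspd1* and *Hspe1*, so these counts are not of independent sequences. A match is a description and not a bound site.

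In the control epithelium these genes lay between 9.28 and 2992 TPM, a level scaled for gene length and depth. *Hspb1*, the small heat shock protein that holds unfolded proteins and binds actin, was the highest, with 2954, 2992 and 2635 TPM in control replicates 1, 2 and 3, and ranked between 27 and 55 of 17784 genes over the 6 samples. *Hspa1b*, a stress-inducible HSP70, followed with 805 to 915 TPM, then *Hspa8*, the constitutive HSP70, with 527 to 548 TPM. Thus in the deposited values the transcript of an inducible HSP70 was above that of the constitutive one in every sample. The TPM ratio was 1.57 ± 0.0970 (SD, n = 3) in control epithelium and 1.51 ± 0.216 (SD, n = 3) in Ptch1Prrx1 epithelium. *Hspa1a*, the near-identical neighbor of *Hspa1b*, lay at 310 to 375 TPM, and *Hsp90aa1*, the inducible HSP90, at 146 to 162 TPM. The order of *Hspa1b* and *Hspa8* rests on how reads were split between *Hspa1b* and *Hspa1a*, which is uncertain, as described below.

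The lower part of the order held the partners and the mitochondrial pair. *Bag3*, which hands HSP70 clients to autophagy, had 117 to 127 TPM in control samples. *Dnajb1*, the HSP40 that delivers clients to HSP70, had 104 to 150 TPM, so this pair overlapped, and in control replicate 1 *Dnajb1* also reached the range of *Hsp90aa1*. *Hspe1* and *Hspd1*, which encode the lid and the barrel of the mitochondrial chaperonin, also overlapped, at 72.9 to 81.7 and 67.8 to 75.7 TPM. *Hsph1*, an HSP110 that exchanges the nucleotide of HSP70, was the lowest, at 9.28 to 11.5 TPM. The other neighbors in the order did not overlap over the control samples, and in Ptch1Prrx1 samples *Hspe1* and *Hspd1* were the only overlapping neighbors.

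**Figure D1:**
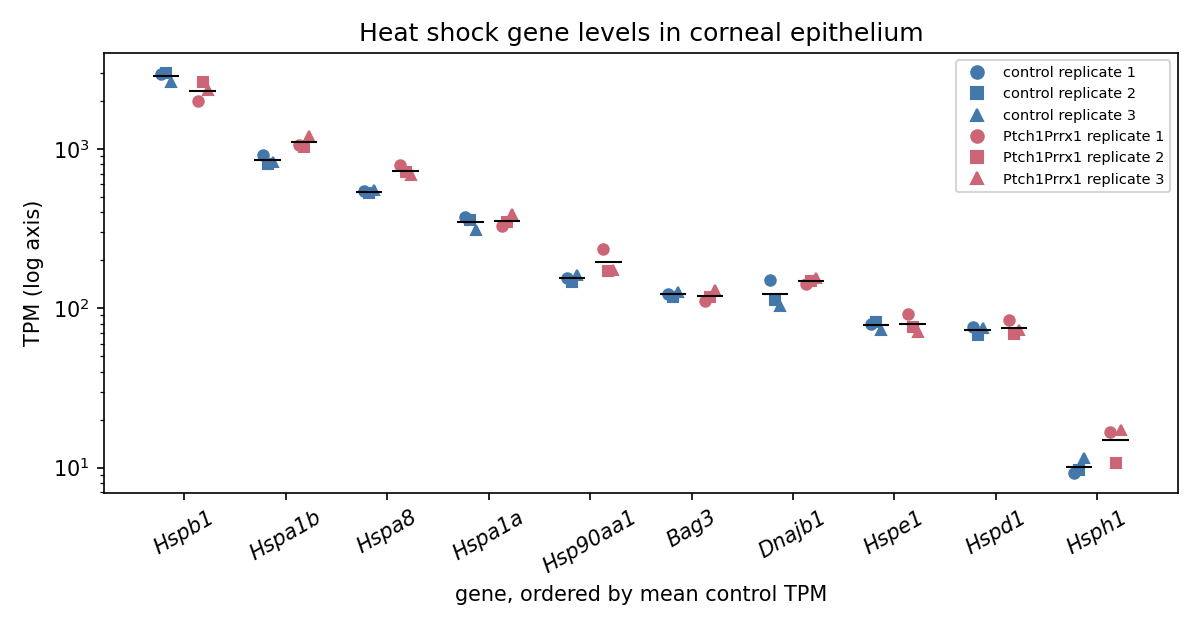
TPM of each heat shock gene (log axis) in each control (blue) and Ptch1Prrx1 (red) sample, with marker shapes for replicates 1 to 3 and black bars for group means, ordered by mean control TPM. The genes span from *Hsph1*, with 9.28 to 17.1 TPM, to *Hspb1*, with 1984 to 2992 TPM, and for most genes the groups lie close together beside this span.

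How firmly a level can be assigned differs among the members. The coding sequences of *Hspa1a* and *Hspa1b* were identical at 1918 of 1929 aligned bases (99.4%), and 60.3% of the 50-base words of the *Hspa1a* transcript in GENCODE M21 also occurred in another gene, most of them in *Hspa1b*. The deposited counts of *Hspa1a* and *Hspa1b* were not whole in any of the 6 samples, which shows that the authors' RSEM quantification divided reads, so the split between this pair is uncertain. *Hspe1*, *Hspd1* and *Dnajb1* also had no whole counts. *Hspa8*, *Hspb1* and *Hsp90aa1* share 73.2%, 58.9% and 58.5% of their 50-base words with other annotated gene models, and their counts were whole in every sample. Whether the authors' annotation held those models is not known, so whole counts do not show that these levels are firmly assigned. *Hsph1* and *Bag3* shared no 50-base word with another gene.

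Counts summed to between 20296741 and 20625813 per sample, and 12999 genes entered the quasi-likelihood test of edgeR. *Ptch1* itself had 517, 659 and 682 normalized counts in control replicates 1 to 3 and 390, 445 and 471 in Ptch1Prrx1 replicates 1 to 3, a log2 fold change of -0.51 (adjusted p = 0.0401 with edgeR), in cells that the recombinase was not aimed at. It did not pass the adjusted p in 8 of 17 alternatives, among them every fit without 1 sample (0.0564 to 0.143) except that without control replicate 1 (0.0347). The level of the corneal keratin *Krt12* was 37107 to 49487 TPM over the 6 samples, and the stromal marker *Kera* was at most 0.07 TPM in every sample. Among the 7 corneal epithelium markers 1 was called, *Krt14* (log2 fold change 2.81, edgeR). In bulk samples, fewer cells of a type and less RNA per cell cannot be told apart.

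None of the 10 heat shock genes changed by 2-fold or more. A call required both a 2-fold change and an adjusted p no higher than 0.05. By this rule 0 of the 10 were called by edgeR, DESeq2 or limma, where edgeR called 3.23% of all genes tested, 2.34% higher and 0.892% lower. At the adjusted p alone, 2 of the 10 were higher in Ptch1Prrx1 epithelium, *Hspa8* and *Hspa1b*, and 0 were lower, against 14% of all genes in either direction, 7.61% higher and 6.41% lower. At an unadjusted p of at most 0.05, 4 were higher and 1 was lower, against 33.5% of all genes. The groups did not overlap for 3 of the 10 genes, against 39.9% of all genes tested. The log2 fold change was above 0 for 9 of the 10 (90%, against 48.5% of all genes), *Bag3* by less than 0.01. Its median over the 10 was 0.20, beside -0.01 over all genes tested. For *Bag3* the sign turned with upper-quartile factors and with library totals alone.

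**Figure D2:**
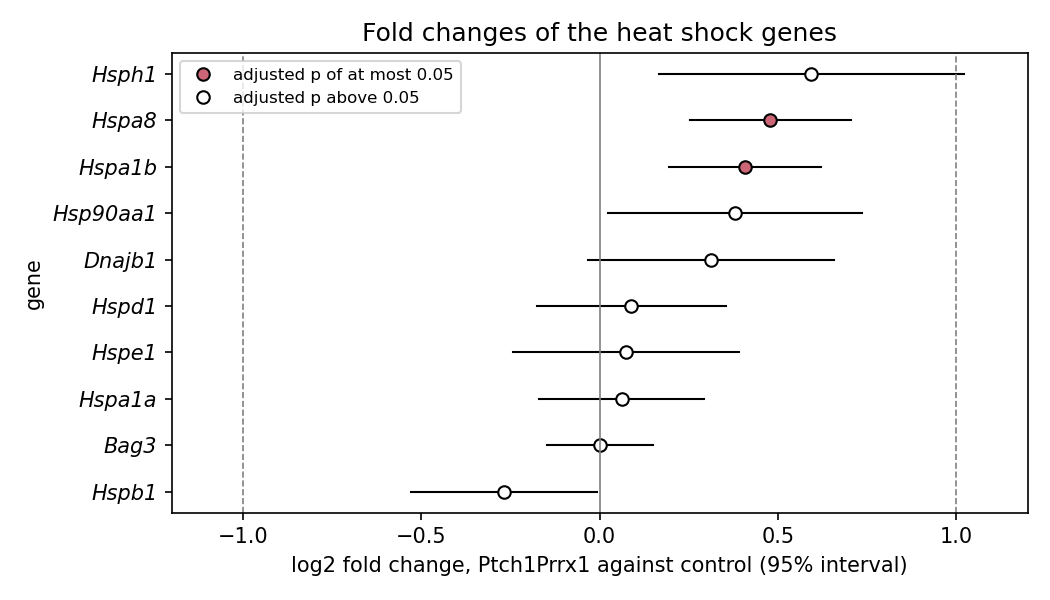
Log2 fold change of each heat shock gene, Ptch1Prrx1 against control (edgeR), with its 95% interval; dashed lines mark a fold change of 2 in either direction. Filled points, *Hspa8* and *Hspa1b*, had an adjusted p of at most 0.05, and the interval of *Hsph1* alone reaches past the upper dashed line.

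Of the 3 HSP70 genes among the 10, *Hspa8* and *Hspa1b* passed the adjusted p and *Hspa1a* did not. *Hspa8*, which folds new proteins in unstressed cells, had 10890, 10138 and 10382 normalized counts in control replicates 1 to 3 and 16490, 14289 and 12995 in Ptch1Prrx1 replicates 1 to 3. Every Ptch1Prrx1 sample was above every control sample, with replicate 1 the highest. Its log2 fold change was 0.48 (standard error 0.10, 95% interval 0.25 to 0.70, adjusted p = 0.0236 with edgeR), a fold of 1.39. *Hspa8* did not pass the adjusted p without control replicate 1 (0.0564), control replicate 2 (0.105), control replicate 3 (0.0668) or Ptch1Prrx1 replicate 2 (0.0511), and over 17 alternatives its edgeR, DESeq2 or limma adjusted p ranged from 5.55e-05 to 0.105.

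*Hspa1b* had 24628, 20800 and 21000 normalized counts in control samples and 29826, 27633 and 30691 in Ptch1Prrx1 samples. These groups did not overlap either, and the highest control sample was replicate 1. The difference on the log2 scale was 0.41 (standard error 0.09, 95% interval 0.19 to 0.62, adjusted p = 0.0307 with edgeR), a fold of 1.33. *Hspa1a* had 10040, 9233 and 7842 normalized counts in control samples and 9134, 9198 and 9962 in Ptch1Prrx1 samples. Its groups overlapped fully, with control replicate 1 the highest and control replicate 3 the lowest of the 6 samples, and the log2 fold change was 0.06 (95% interval -0.17 to 0.29, adjusted p = 0.706 with edgeR).

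The difference within this pair was examined as a ratio inside each sample. The TPM of *Hspa1b* over that of *Hspa1a* was 2.44, 2.24 and 2.67 in control replicates 1 to 3 and 3.25, 2.99 and 3.07 in Ptch1Prrx1 replicates 1 to 3. All Ptch1Prrx1 ratios were above all control ratios, and the exact two-sided permutation test gave p = 0.1, the smallest that 3 samples against 3 allow, and 0.25 after Benjamini-Hochberg adjustment over the 5 ratios tested. Summed to 1 gene, which removes the split of shared reads, *Hspa1a* and *Hspa1b* had 28841 to 34669 normalized counts in control samples and 36831 to 40653 in Ptch1Prrx1 samples. For the sum, the log2 fold change was 0.32 (95% interval 0.10 to 0.53, adjusted p = 0.0600 with edgeR), so the adjusted p was above the threshold when the pair was summed. The adjusted p of *Hspa1b* was also above it without control replicate 2 (0.133), control replicate 3 (0.0906), Ptch1Prrx1 replicate 2 (0.0506) or Ptch1Prrx1 replicate 3 (0.0656), and ranged from 0.000276 to 0.133 over 18 alternatives with edgeR, DESeq2 or limma.

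Among the partners of HSP70, *Hsph1* had the largest log2 fold change of the 10 genes, 0.59 (standard error 0.18, 95% interval 0.17 to 1.02, adjusted p = 0.0684 with edgeR). Its normalized counts were 309, 309 and 361 in control samples and 586, 354 and 537 in Ptch1Prrx1 samples. Ptch1Prrx1 replicate 2 lay below control replicate 3, and without that replicate the log2 fold change was 0.78 and the edgeR adjusted p was 0.0203. With DESeq2 on all samples it was 0.0215, within a range of 0.0203 to 0.206 over 17 alternatives.

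*Dnajb1* had 4331, 3100 and 2833 normalized counts in control samples and 4281, 4210 and 4265 in Ptch1Prrx1 samples. Control replicate 1 stood above all Ptch1Prrx1 samples, which differed among themselves by less than those of any other member (coefficient of variation 0.879%). Its log2 fold change was 0.31 (95% interval -0.03 to 0.66, adjusted p = 0.183 with edgeR), and without control replicate 1 it was 0.52 with an adjusted p of 0.0305, the lowest of 17 alternatives that reached up to 0.430. *Bag3* differed least between the groups. It had 3049, 2790 and 2976 normalized counts in control samples and 2855, 2909 and 3054 in Ptch1Prrx1 samples, and its interval, -0.15 to 0.15 on the log2 scale, is the narrowest of the 10 genes. The TPM ratio of *Dnajb1* to *Bag3* was 0.999 ± 0.205 (SD, n = 3) in control and 1.25 ± 0.0442 (SD, n = 3) in Ptch1Prrx1 samples (exact permutation test, p = 0.2, adjusted p = 0.333).

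**Figure D3:**
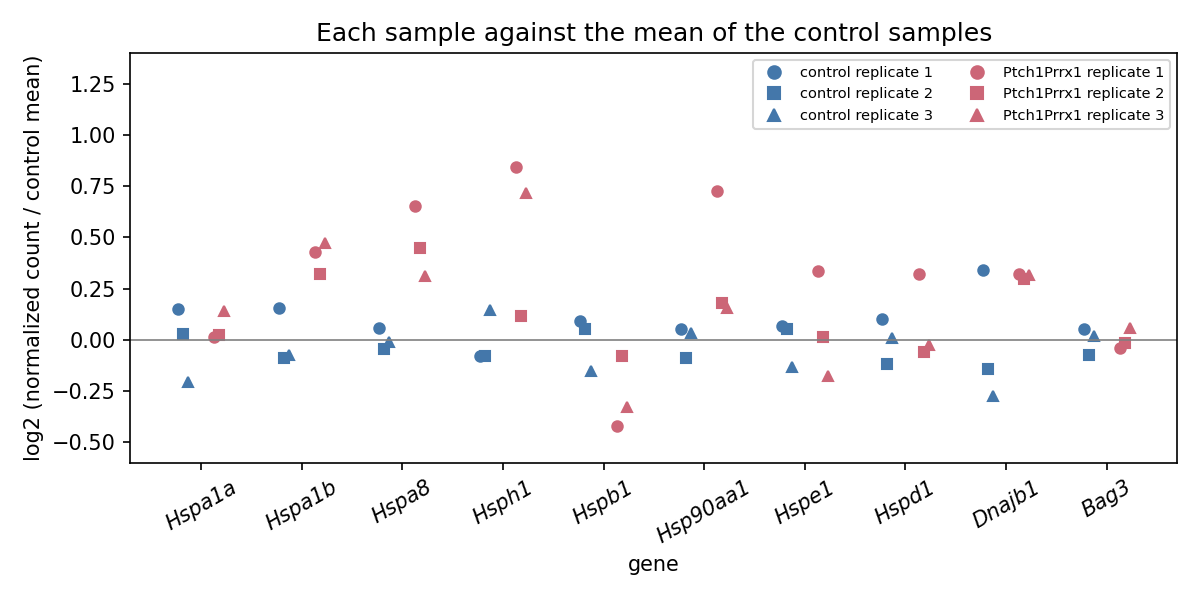
Log2 of each sample's normalized count over the mean of the 3 control samples for each heat shock gene; colors mark the groups and shapes the replicates. Ptch1Prrx1 replicate 1 (red circles) is the highest sample for *Hspa8*, *Hsph1*, *Hsp90aa1*, *Hspe1* and *Hspd1* and the lowest for *Hspb1*.

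*Hsp90aa1*, which matures kinases and steroid receptors and holds HSF1 inactive, had 4221, 3833 and 4173 normalized counts in control samples and 6748, 4619 and 4536 in Ptch1Prrx1 samples. The groups did not overlap, but replicate 1 stood far above the other Ptch1Prrx1 samples. The log2 fold change of *Hsp90aa1* was 0.38 (95% interval 0.02 to 0.74, adjusted p = 0.13 with edgeR), and it was 0.17 without Ptch1Prrx1 replicate 1 (adjusted p = 0.153, within a range of 0.0605 to 0.322 over 17 alternatives). Its constitutive paralog *Hsp90ab1* had 22083 to 22165 normalized counts in control and 23654 to 24560 in Ptch1Prrx1 samples (log2 fold change 0.12, adjusted p = 0.212 with edgeR). The TPM ratio of *Hsp90aa1* to *Hsp90ab1* was 0.152 to 0.167 in control samples, 0.241 in Ptch1Prrx1 replicate 1 and 0.168 in replicates 2 and 3 (exact permutation test, p = 0.1, adjusted p = 0.25).

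*Hspe1* and *Hspd1* lie side by side on opposite strands around the stretch printed above. *Hspe1* had 555, 550 and 483 normalized counts in control samples and 669, 535 and 469 in Ptch1Prrx1 samples. *Hspd1* had 1702, 1462 and 1595 in control samples and 1979, 1521 and 1561 in Ptch1Prrx1 samples. Both were highest in Ptch1Prrx1 replicate 1 and overlapped between groups, with log2 fold changes of 0.07 (95% interval -0.24 to 0.39) and 0.09 (-0.18 to 0.35). Without that replicate both signs turned, to -0.075 and -0.039. The TPM ratio of *Hspe1* to *Hspd1* was 1.07 ± 0.120 (SD, n = 3) for control and 1.05 ± 0.0821 (SD, n = 3) in Ptch1Prrx1 samples (exact permutation test, p = 0.9, adjusted p = 0.9).

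*Hspb1* was the only member with a negative fold change. It had 24591, 23912 and 20742 normalized counts in control samples and 17239, 21852 and 18406 in Ptch1Prrx1 samples. Ptch1Prrx1 replicate 2 lay above control replicate 3, so the groups overlapped. Its log2 fold change was -0.27 (standard error 0.11, 95% interval -0.53 to -0.01, adjusted p = 0.140 with edgeR), and it was negative in all 17 alternatives, from -0.38 to -0.19, with adjusted p of 0.0755 to 0.330. Because *Hspb1* is the most abundant member, the summed TPM of the 10 genes was 5156 ± 260 (SD, n = 3) in control and 5131 ± 254 (SD, n = 3) in Ptch1Prrx1 samples, from 0.484% to 0.538% of all TPM over the 6 samples. Without *Hspb1*, a sum chosen after the values were seen, the other 9 genes summed to 2425, 2226 and 2235 TPM in control replicates 1 to 3 and to 2859, 2686 and 2896 TPM in Ptch1Prrx1 replicates 1 to 3. These sums did not overlap, with a ratio of the means of 1.23 against 0.995 with *Hspb1*.

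Ptch1Prrx1 replicate 1 was the highest of the 6 samples for 5 of the 10 heat shock genes, and for 29.4% of all genes tested. In the same sample the summed TPM of the 5 measured conjunctiva markers was 4667, against 1384 to 2309 in control samples and 2174 and 2888 in the other Ptch1Prrx1 samples. These sums were carried by *Krt4*, *Krt13* and *Krt19*. Their log2 fold changes were 1.80, 0.68 and 1.46 (adjusted p = 0.0685, 0.107 and 0.0793 with edgeR), so 0 were called. All 3 (100%) were higher in Ptch1Prrx1 at an unadjusted edgeR p of at most 0.05, against 33.5% of all genes in either direction. The goblet cell genes *Muc5b* and *Spdef* were at most 0.01 and 0.38 TPM in every sample. The summed corneal epithelium markers were lowest in Ptch1Prrx1 replicate 1, 89483 TPM against 96155 to 109614 in the other samples. The part of these markers in the values of *Hspa8*, *Hsph1*, *Hsp90aa1*, *Hspe1*, *Hspd1* and *Hspb1* was not tested. Stroma markers summed to 9.95 to 55.9 TPM in control and 7.86 to 12.3 in Ptch1Prrx1 samples, with 0 of 4 tested called, and the highest value was that of control replicate 3. Immune markers summed to 125 to 166 TPM in control and 153 to 207 in Ptch1Prrx1 samples, with 0 of 3 called. Most of this sum was *Itgam* (67.0 to 128.5 TPM over the 6 samples) and *Cd68* (45.3 to 65.5 TPM). *Cd74* lay at 8.16 to 14.12 TPM in control and 4.24 to 12.25 TPM in Ptch1Prrx1 samples. *Ptprc*, *Csf1r*, *Adgre1*, *Lyz2* and *Cd3e* were at most 0.32 TPM in every sample. Whether immune cells were present was not tested.

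Of the 109 other genes of the chaperone network, 102 were tested and 1 was called, *Hspa4l*, where 3.23% of all genes were called. At the adjusted p alone, 4 were higher and 4 were lower, against 14% of all genes in either direction, and the median log2 fold change was 0.04. *Hspa4l*, an HSP110 related to *Hsph1*, had 316, 296 and 289 normalized counts in control samples and 1302, 573 and 1031 in Ptch1Prrx1 samples. The groups were far apart, with Ptch1Prrx1 replicate 2 the lowest of its group as for *Hsph1*. The log2 fold change of *Hspa4l* was 1.69 (standard error 0.27, adjusted p = 0.0133 with edgeR). Its call was lost without control replicate 2 (adjusted p = 0.0725) and with limma on unfiltered log2(TPM + 1) (0.0573), within a range that began at 1.23e-09 with DESeq2.

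**Figure D4:**
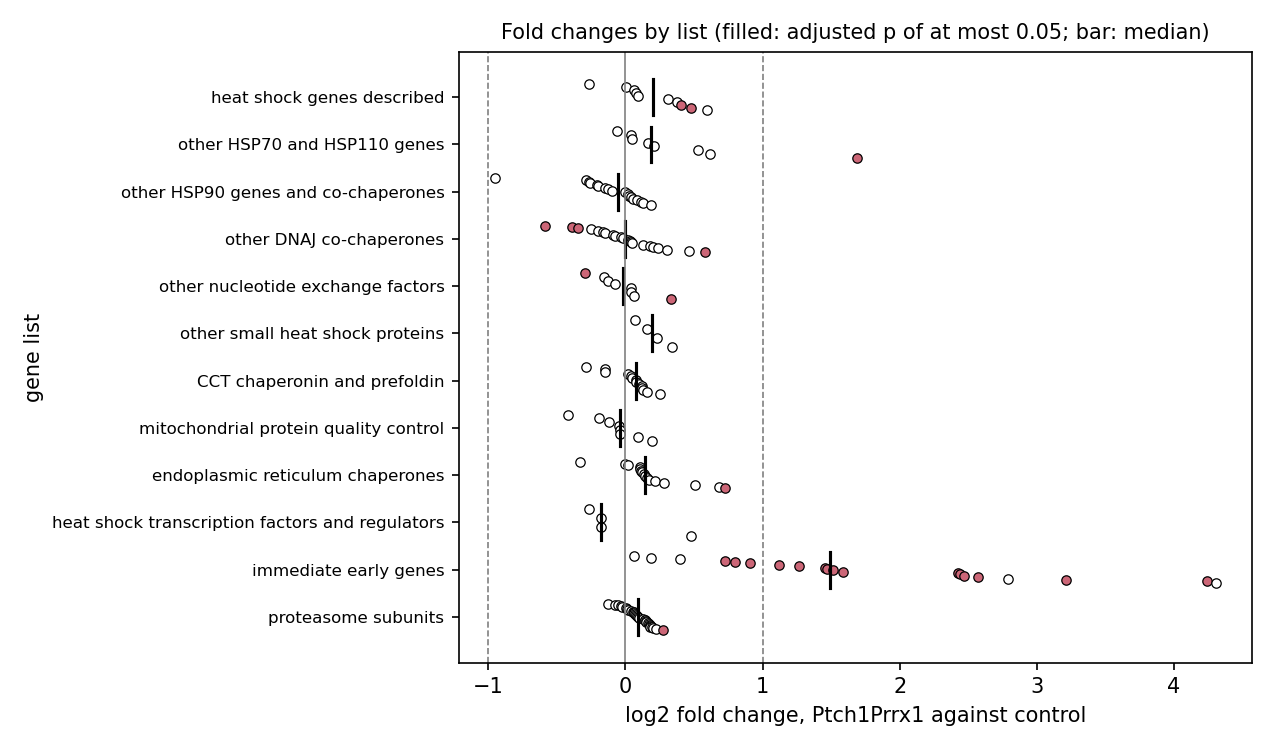
Log2 fold change (edgeR) of each tested gene by list, with vertical bars for list medians, filled points for an adjusted p of at most 0.05 and dashed lines at a fold change of 2. *Hspa4l* (1.69) is the only gene of the chaperone lists past the dashed lines, while most immediate early genes lie above the upper one.

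Among the 8 other HSP70 and HSP110 genes tested, the mitochondrial *Hspa9* had a log2 fold change of 0.16 (adjusted p = 0.195 with edgeR), *Hspa2* of 0.53 (0.0665) and *Hspa14* of 0.21 (0.0805). Of 22 DNAJ co-chaperones, which bring clients to HSP70, *Dnajb4* rose (log2 fold change 0.58, adjusted p = 0.0492 with edgeR) and *Dnaja4* fell (-0.58, 0.0281). *Dnajb2* (-0.39) and *Dnajc8* (-0.35) also fell, and these names were taken after their values were seen. At the adjusted p, 1 of the 22 was higher and 3 were lower (18.2%, against 14% of all genes). *Dnaja1*, the heat-inducible partner of *Hspa8*, had 1025 to 1355 normalized counts in control and 1432 to 2061 in Ptch1Prrx1 samples (log2 fold change 0.47, adjusted p = 0.0923 with edgeR). Of 8 exchange factors, the mitochondrial *Grpel2* rose (0.33, adjusted p = 0.0461) and *Bag2* fell (-0.29, 0.0421), both with groups that did not overlap, and *Bag1* had -0.15 (0.175). The exchange factors past the adjusted p were thus 1 higher and 1 lower (25%, against 14% of all genes).

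Of the 18 other HSP90 and co-chaperone genes, 0 passed the adjusted p with edgeR, against 14% of all genes. At an unadjusted p of at most 0.05 there were 6 (33.3%, against 33.5% of all genes), all lower in Ptch1Prrx1. The largest difference was in *Fkbp5*, an immunophilin of steroid receptor complexes that glucocorticoids induce. It had 1386, 3200 and 2568 normalized counts in control samples and 1135, 1376 and 1191 in Ptch1Prrx1 samples. Control replicate 1 lay near the Ptch1Prrx1 samples (log2 fold change -0.95, adjusted p = 0.0550 with edgeR), and *Fkbp5* was called when it was left out. *Ppid* had -0.29 (0.0555) and *Tomm34* -0.27 (0.122).

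Of 8 listed small heat shock proteins beside *Hspb1*, 4 were tested and 0 passed the adjusted p. *Cryab* had 1214 to 2072 normalized counts in control and 1660 to 1826 in Ptch1Prrx1 samples, *Hspb6* had a log2 fold change of 0.34 and *Hspb8* of 0.23. The 14 genes of the cytosolic chaperonin CCT and of prefoldin, which fold actin and tubulin, had a median of 0.08 with 0 past the adjusted p, from *Pfdn5* (-0.29) to *Cct6a* (0.25), and *Pfdn4* had 0.15. Among the 8 genes of mitochondrial protein quality control, 0 passed as well, with *Hscb* at -0.42, *Clpp* at -0.20 and *Clpx* at 0.20. In the CCT list 1 gene (7.14%), and in the mitochondrial list 2 genes (25%), had an unadjusted p of at most 0.05, against 33.5% of all genes. The adjusted p was passed by 14% of all genes, so 0 in lists this short says little.

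In the endoplasmic reticulum, where a separate stress response acts, 14 of 16 chaperone genes had a log2 fold change above 0 (87.5%, against 48.5% of all genes) and 1 passed the adjusted p (6.25%, against 14%). *Sdf2l1*, induced with BiP, rose (0.72, adjusted p = 0.0375 with edgeR). *Hspa5*, which encodes BiP, had 4286 to 4807 normalized counts in control samples and 8372, 6053 and 5215 in Ptch1Prrx1 replicates 1 to 3 (0.51, adjusted p = 0.0755). As for *Hsp90aa1* and *Hspa8*, replicate 1 was the highest, and *Dnajb9* was also highest there (0.68, adjusted p = 0.112).

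*Hsf1*, which encodes the main heat shock transcription factor, had 899, 875 and 836 normalized counts in control samples and 761, 747 and 797 in Ptch1Prrx1 samples. Every Ptch1Prrx1 sample was below every control sample, with a log2 fold change of -0.18 (95% interval -0.34 to -0.02, adjusted p = 0.117 with edgeR). *Hsf2* had 36.4 to 57.6 normalized counts in control and 45.8 to 77.5 in Ptch1Prrx1 samples (0.48, adjusted p = 0.258). *Hsbp1*, which binds HSF1 trimers, had a log2 fold change of -0.18 (adjusted p = 0.217). These are transcript levels, while HSF1 is controlled mainly as a protein.

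Immediate early genes, which respond to dissociation as they do to growth factors and injury, were set beside the heat shock genes. Of 20 such genes, 12 were called, all higher, where 2.34% of all genes tested were called higher, against 0 of the 10 heat shock genes. Among the 12 were *Egr2* and *Egr3*, with means of only 3.61 and 0.66 normalized counts in control samples. With at least 10 counts required in every sample, 10 were called. The 5 with the smallest p were *Btg2* (log2 fold change 1.59), *Nr4a1* (3.21), *Jun* (2.47), *Zfp36* (1.47) and *Dusp1* (2.43). *Nr4a1* had 28.8, 36.4 and 20.4 normalized counts in control samples and 261, 311 and 223 in Ptch1Prrx1 samples. *Dusp1* had 971 to 1896 in control and 4736 to 10206 in Ptch1Prrx1 samples. The summed TPM of the 20 genes was 3062 ± 205 (SD, n = 3) in control and 5517 ± 416 (SD, n = 3) in Ptch1Prrx1 samples, while that of the 10 heat shock genes overlapped between groups only with *Hspb1* in the sum, as given above. Both lists were chosen with earlier results of these data known, and the difference between them was not tested. Without control replicate 2 the number of immediate early genes called was 5, and without control replicate 3 it was 7. In these fits the calls over all genes tested fell from 420 to 59 and to 254.

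**Figure D5:**
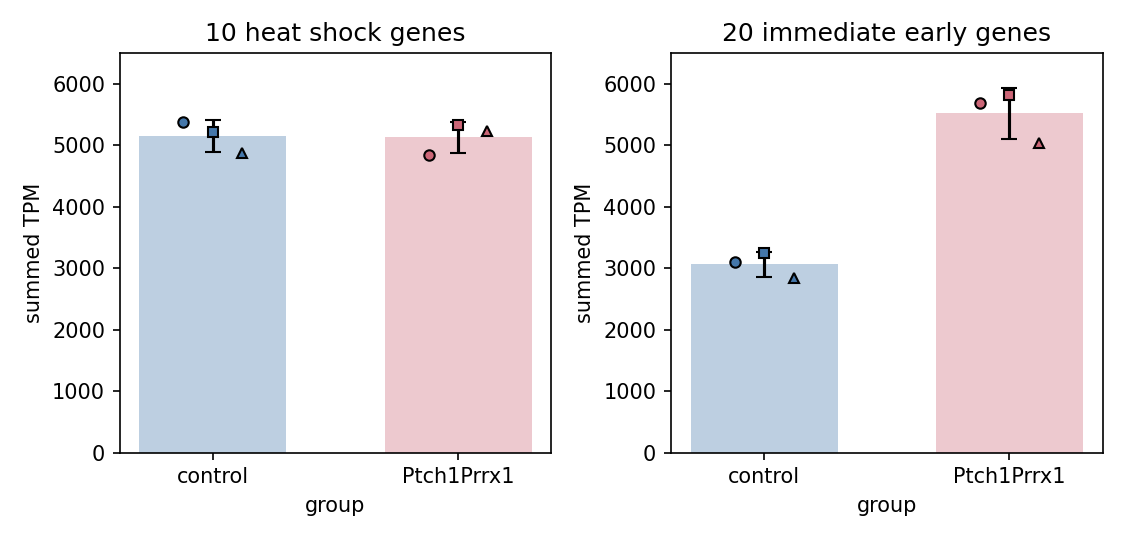
Summed TPM of the 10 heat shock genes (left) and of 20 immediate early genes (right) in each sample; bars give group means, error bars 1 SD (n = 3), and marker shapes the replicates. The heat shock sums, of which *Hspb1* makes up 1984 to 2992 TPM, overlap between groups, from 4843 to 5380 TPM, and the immediate early sums do not, at 2840 to 3245 against 5044 to 5821 TPM.

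Over the 6 samples, the genes whose log2 normalized counts followed *Hspa1a* most closely among 10313 genes compared were *Manbal* (Pearson r = 0.987), *Ddit3* (0.980), *Jak2* (0.980), *Smndc1* (0.967) and *Baiap2l1* (0.956). Their log2 fold changes lay between 0.03 and 0.09, beside 0.06 for *Hspa1a*. The closest to *Hspb1* were *Sntb1* (0.992), *Pdgfra* (0.991), *Ppcs* (0.990), *Ttc7* (0.990) and *Marchf8* (0.988), and each had a negative log2 fold change, from -0.57 to -0.12. Each value rests on 6 libraries that all genes share. The genes were picked as the highest correlations among 10313, over samples that include both groups. Fold changes like that of *Hspa1a* or *Hspb1* therefore follow from the choice and are not a separate result.

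Within groups, the coefficient of variation of the members' normalized counts ran from 3.66% (*Hspa8*) to 23.4% (*Dnajb1*) in control samples, and from 0.879% (*Dnajb1*) to 24.8% (*Hsph1*) in Ptch1Prrx1 samples. The medians over the 8058 genes with at least 300 normalized counts were 5.98% and 7.52%.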

How the data were processed

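Corneal epithelial RNA-seq data of 3 control and 3 Ptch1Prrx1 samples were analysed. Per the labels and the study's methods, the authors aligned reads with Bowtie2 2.2.5 and quantified genes with RSEM 1.2.12, and the processing notes name mm9. The gene annotation is not given in the sources used here. The study's methods name rRNA depletion and a BGISEQ-500 instrument, and the labels an Illumina kit. The deposited expected counts are RSEM estimates without scaling for depth, and 39.4% of those above 0 were not whole. The deposited TPM and FPKM values are RSEM's, scaled for length and depth, and FPKM was not used.

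Expected counts were rounded and tested over 12999 genes with edgeR 4.0.16 in R 4.3.3 (filterByExpr, TMM, quasi-likelihood test, Benjamini-Hochberg adjustment over all genes tested). Calls required a fold change of 2 or more together with an adjusted p no higher than 0.05, as in the study. Normalized counts are counts on TMM-scaled library sizes times their mean. Standard errors are the absolute log2 fold change over the square root of the F statistic, and 95% intervals use its t distribution. In each sample 3 counts correspond to 0.145 to 0.148 CPM, which covers counting error only. Replicates of a group differed by more than sampling noise (chi-square per degree of freedom 10.1 to 37.8). Alternatives used DESeq2 1.42.0, limma 3.58.1, other scalings and filters, log2 TPM with a pseudocount of 1 or 0.1, a replicate block and each sample left out. The fits were tested on simulated data. Other per-sample columns used numbered 0.

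The genes named were the 10 members, from each other chaperone list the called genes and the 3 largest absolute fold changes at a mean of at least 50 normalized counts, 5 fixed chaperone genes, the 5 called immediate early genes with the smallest p, and the 5 genes most correlated with *Hspa1a* and *Hspb1* at a mean of at least 100. The members and lists were chosen with earlier results of these data known. Promoter windows are from RefSeq (GRCm38.p6) and transcripts from GENCODE M21. Transcripts were compared in Biopython 1.88.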

Additional observations from a re-analysis of the deposited data

How the results depend on the processing

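No alternative called a heat shock gene, including an unadjusted p with the fold change, and the median log2 fold change of the 10 stayed between 0.13 and 0.27. The heat shock genes past the adjusted p numbered 2, but 3 with DESeq2, which added *Hsph1*, and 1 with limma on unfiltered log2(TPM + 1). With 1 sample left out they numbered 0 to 2, with 0 without control replicate 2 or 3. Over all genes tested, those past the adjusted p fell from 1822 to 93 without control replicate 2 and to 734 without control replicate 3. Calls over all genes fell from 420 to 59 and to 254 in these fits. The other chaperone genes called numbered 1, 0 with unfiltered log2(TPM + 1), and 0 to 2 with 1 sample left out. Those past the adjusted p numbered 8, 14 with DESeq2, 10 to 11 with upper-quartile factors, library totals, the other limma fits on log2 TPM and the replicate block, 5 with no filter beyond 1 count, 3 with unfiltered log2(TPM + 1), and 0 to 5 with 1 sample left out. The immediate early genes called numbered 12, from 9 (unfiltered log2(TPM + 1)) to 13 (DESeq2, limma-voom and the replicate block) over the other settings, and 5 to 13 with 1 sample left out. *Ptch1* kept its direction but lost the adjusted p in 8 of 17 alternatives, with a log2 fold change of -0.48 in limma on log2(TPM + 1), with or without the filter (adjusted p 0.0781 and 0.133), -0.53 on log2(TPM + 0.1) (0.0785), and -0.62 to -0.43 with 1 sample left out (0.0347 to 0.143).

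The sign turned for *Bag3* with upper-quartile factors (-0.011), library totals (-0.046), no filter beyond 1 count (-0.0061), and limma on log2(TPM + 1), filtered or not (-0.038), or log2(TPM + 0.1) (-0.039). With 1 sample left out the log2 fold change of *Bag3* ran from -0.038 to 0.026, below 0 without control replicate 2 or Ptch1Prrx1 replicate 3. That of *Hspa1a* ran from -0.033 (without control replicate 3) to 0.142, and those of *Hspe1* from -0.075 to 0.184 and of *Hspd1* from -0.039 to 0.155, both lowest without Ptch1Prrx1 replicate 1. The cause was not tested. The replicate block left 2 heat shock genes past the adjusted p, 0 called, and 13 immediate early genes called, against 12. Same-numbered samples correlated by 0.0731, 0.0490 and 0.00719 in their deviations from the group means. Differently numbered samples were not set beside these values, so a weak pairing by number was not tested. Depth was similar in all samples. The number of samples limits the precision, and the 95% interval of *Hsph1* extends past a 2-fold change.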

Other observations

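Subunits of the proteasome, which degrades proteins that chaperones fail to refold, moved little. All 31 listed genes were tested, and 0 were called with edgeR. The log2 fold change was above 0 for 26 (83.9%, against 48.5% of all genes), with a median of 0.09 and a range from -0.13 to 0.28. At an unadjusted p of at most 0.05, 3 were higher and 0 lower (9.68%, against 33.5% of all genes). The gene at the upper end, *Psmd12*, a lid subunit named after its value was seen, was the 1 past the adjusted p (0.0432), where 14% of all genes passed, and its groups did not overlap. The summed TPM of the 31 subunits was 4314 ± 33.9 (SD, n = 3) in control and 4406 ± 88.4 (SD, n = 3) in Ptch1Prrx1 samples.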
